A study of Phlebiopsis gigantea with 8 samples.

Results

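Transcripts of 243 genes annotated as transcription factors or as carriers of a DNA-binding domain were followed in *Phlebiopsis gigantea*, a white-rot basidiomycete that colonizes fresh conifer wood. They were taken from the 11892 gene models of the expression table by the words of their annotation, which had to name a fungal transcriptional regulatory protein, a fungal specific transcription factor, a C2H2-type zinc finger, a high mobility group protein, a homeobox, a bZIP or helix-loop-helix domain, a GATA-type zinc finger, a heat shock factor or forkhead. Phlgi1_123837, Phlgi1_36458 and Phlgi1_340250 were to be included in any case, and all of them also met the wording, so no member entered by its expression. Those 3 had, however, been singled out by the study for their transcript levels in these same libraries. Only 10 of the members carried a function name other than hypothetical, 43 were called hypothetical and 190 had no function name, so most are known by their domain alone.

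All cultures were of one strain, derived from a single basidiospore, in 250 ml of basal salts, and mycelium was harvested on day 5. In 3 cultures the carbon source was ground, freshly harvested loblolly pine wood that had been wetted with acetone and dried (NELP, non-extracted), in 3 it was the same wood after exhaustive acetone extraction (ELP), and in 2 it was glucose (Glc). The wood is given as 2.5 g per culture in the labels of the samples, while another amount stands in the study's methods. Each culture gave 1 library, so the replicates are separate cultures of 1 experiment. NELP against ELP asks about the acetone-soluble extractives (pitch and resin), and each wood medium against Glc asks about growth on wood.

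Fungal transcription factors fall into a few large domain families. Zn2Cys6 proteins, in which a pair of zinc ions is held by cysteines, are nearly confined to fungi and include most known regulators of sugar, nitrogen and plant cell wall metabolism. C2H2 zinc fingers include the carbon catabolite repressors and stress regulators, GATA factors act in nitrogen, iron and light responses, bZIP proteins in starvation and secretion stress, and HMG box proteins bend DNA as mating-type regulators or as parts of chromatin.

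By domain the members were 78 C2H2 zinc fingers, 62 Zn2Cys6 proteins found by their N-terminal zinc cluster, 18 found by the fungal specific regulatory domain that many Zn2Cys6 proteins share, 20 HMG box proteins, 15 homeobox, 13 helix-loop-helix (bHLH), 11 bZIP, 8 GATA, 8 HMG-I/Y (AT-hook), 6 forkhead-associated and 3 heat shock factors. The last member is a heat shock factor-binding protein. The forkhead-associated domain binds phosphorylated peptides rather than DNA, and the heat shock factor-binding protein is not a DNA-binding protein either, so 7 members entered by wording only. Of the 62 zinc cluster proteins, 33 were assigned by a Pfam profile, 26 by a PRINTS fingerprint and 3 by a superfamily model. A fingerprint is a loose match, and the most abundant of the 62 on wood, Phlgi1_27457, bears the function name of a proteophosphoglycan in the table.

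The values are RPKM, reads per kilobase of gene scaled to the size of the library. From the step between the lowest values, depth was estimated at 10200000 to 18200000 reads in NELP, 5940000 to 7180000 reads in ELP, and 7870000 and 14000000 reads in Glc. The ELP libraries were the shallowest, and the part of depth in differences between low transcripts was not tested. Replicate cultures on wood were alike, since a typical member had an SD (log2) of 0.195 among NELP and 0.202 among ELP libraries, but of 0.6 between the Glc libraries (0.194, 0.217 and 0.506 over all genes tested). Between Glc 1 and Glc 2, 40.5% of the tested members differed more than 2-fold, and 33.6% were that much lower in Glc 1. For all genes tested these shares were 35.1% and 23.9%. Each result against Glc therefore rests on 2 libraries that stand apart. Values without 1 of them are given for many of the named genes. Sizes printed without such values may also depend on which Glc library is kept.

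The members held 3.03, 3.31 and 3.53% of the summed RPKM in the NELP libraries, 1.91, 2.16 and 2.73% in ELP, and 1.02 and 1.56% in Glc, although they were 2.04% of the gene models. NELP, ELP and Glc libraries did not overlap in this share. A single gene, Phlgi1_123837, supplied 0.824 to 1.2% in NELP. Without it the members held 2.11 to 2.33% in NELP and 1.72 to 2.39% in ELP, so the wood media overlapped.

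**Figure D1:**
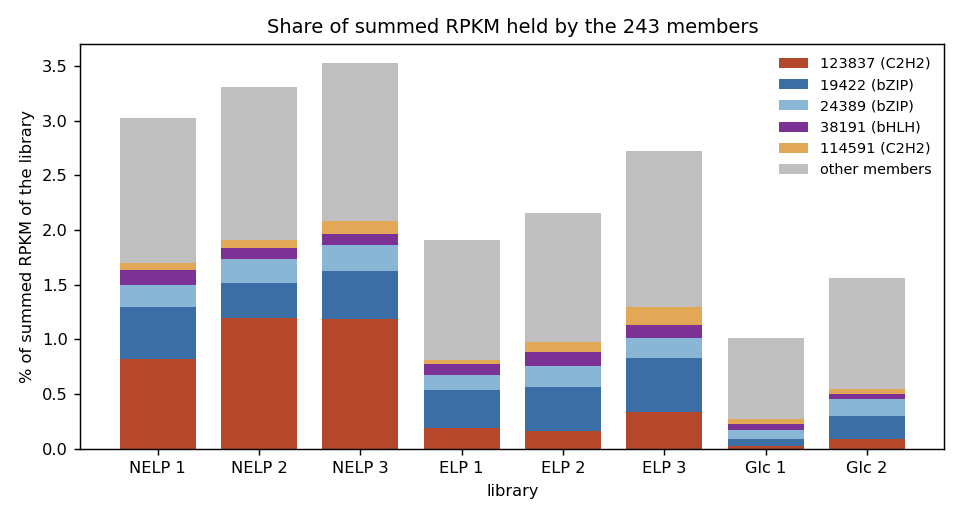
Share of the summed RPKM of each library, in percent, held by the 243 members, stacked for the 5 most abundant members and the sum of the others. The C2H2 protein Phlgi1_123837 fills 0.824 to 1.2% in NELP, 0.161 to 0.337% in ELP and 0.0285 to 0.0868% in Glc.

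Typical members were not rare transcripts. Their median was 24.3 to 26.4 RPKM in NELP, 20.7 to 22.0 RPKM in ELP, and 11.4 and 17.1 RPKM in Glc, against 21.8 to 23.8, 22.6 to 23.7, and 12.3 and 16.3 RPKM over all genes. Between 25 and 37 members exceeded 100 RPKM in a wood library and 17 did so in each Glc library. At the other end, 11 members averaged under 1 RPKM over the 8 libraries and were not tested. They were 6 C2H2 proteins, 2 HMG box proteins listed at 0 in every library, 1 homeobox, 1 bZIP and 1 HMG-I/Y protein. Among them were the yeast Mot3p-like protein Phlgi1_46901, at 0.779 RPKM in NELP 2 and listed at 0 in the other 7 libraries, and the homeodomain protein Phlgi1_17374, whose highest value was 0.27 RPKM in ELP 1. The 239 members with a length in RefSeq (assembly Phlgi1) had a median gene length of 1808 bases, against 1502 bases for all genes tested.

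On the scale of log2(RPKM + 0.5), 78 of the 232 tested members rose in NELP against Glc and 7 fell (limma, adjusted p under 0.05, where 29.5% of all genes tested rose and 3.67% fell). That is 33.6% and 3.02% of the members. In ELP against Glc, 82 rose and 14 fell, 35.3% and 6.03% of the members, beside 37.3% and 5.14% of all genes. In this fit the share of members that moved was near that of all genes in both wood media. The median member changed by a log2 of 0.72 in NELP and 0.59 in ELP, and the median gene by 0.54 and 0.60. When libraries were rescaled by the median of gene ratios, the median gene stood at -0.03 in both comparisons. Then 26 members rose and 16 fell in NELP, 11.2% and 6.9% of those tested (background 6.57% and 7.08%). In ELP 30 rose and 32 fell, 12.9% and 13.8% (background 10.6% and 11.4%), so about as many members fell as rose. All 26 and all 30 were among those that had risen before rescaling. The counts also moved by more than 1.5 times when a single library was left out. Shares of all genes are not given for these fits. Their counts therefore show how far the calls depend on single libraries, and are no trait of the members. In NELP, 44, 34 and 42 members rose without NELP 1, NELP 2 and NELP 3, and 134 without Glc 2. In ELP, 51 rose without ELP 2 and 135 without Glc 2. Without 1 library the members that fell in NELP numbered 2 to 19 (2 without any NELP library, 19 without Glc 2), and those that fell in ELP 4 to 23 (4 without ELP 1, 23 without either Glc library).

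The members were also counted in other ways. At an unadjusted p under 0.05, 48.3% of members were higher and 4.31% lower in NELP (background 41.4% and 5.76%), and 42.2% and 7.76% in ELP (45.6% and 7.27%). The wood libraries lay wholly above Glc in 131 members and wholly below in 17 in NELP (56.5% and 7.33%, background 49.7% and 7.84%), and in 110 and 22 in ELP (47.4% and 9.48%, background 51.4% and 8.93%). With only the media compared in the fit, 32 rose and 0 fell in NELP (13.8% and 0%, background 7.79% and 1.12%). In ELP 37 rose and 4 fell (15.9% and 1.72%, background 17.4% and 2.25%). When rescaling was added, 3 rose and 1 fell in NELP (1.11% and 1.24%), and 3 rose and 3 fell in ELP (1.35% and 2.26%). With weights that let each medium have its own spread, 3 rose and 0 fell in NELP (0.682% and 0.209%), and 1 rose and 0 fell in ELP (0.482% and 0.164%).

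The 2 comparisons share the Glc libraries, so their calls are not independent. Side by side, 65 members rose in both wood media, 13 in NELP alone and 17 in ELP alone, 6 fell in both, 1 in NELP alone and 8 in ELP alone, and 122 passed in neither. After rescaling, 13 rose in both, 12 fell in both and 153 passed in neither. The shares of all genes with these patterns were not counted, so the overlap cannot be read as a trait of the members.

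**Figure D2:**
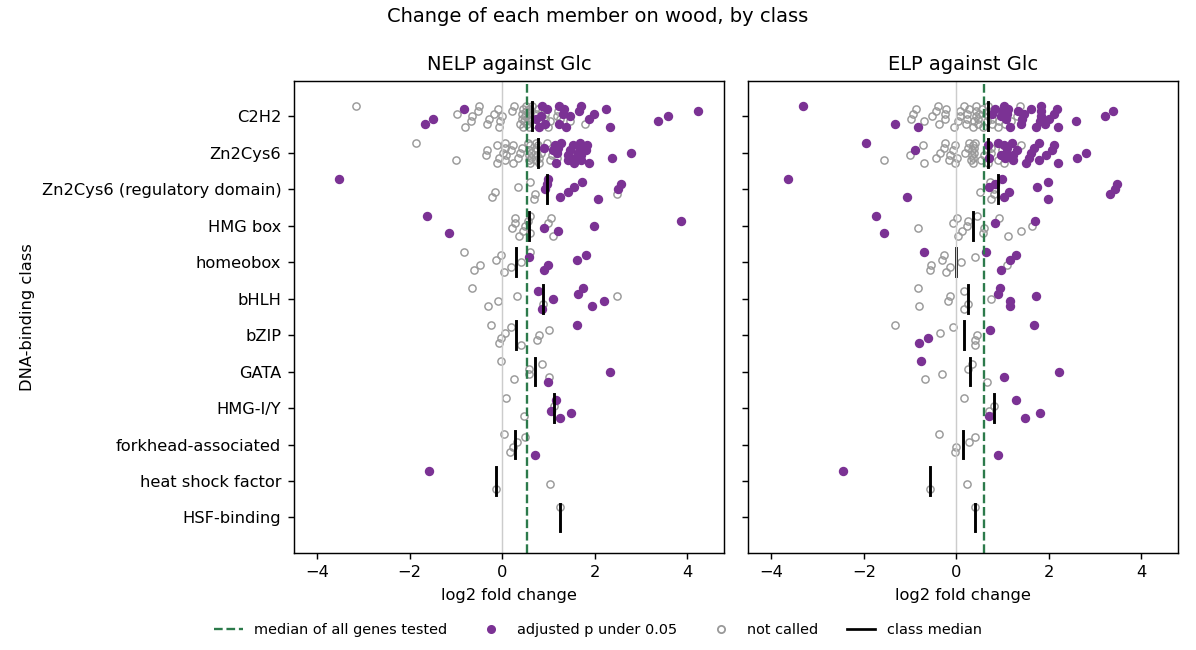
Log2 fold change of each tested member in NELP (left) and ELP (right) against Glc, 1 point per gene, by DNA-binding class. Filled points passed at an adjusted p under 0.05, black bars are class medians, and the dashed line is the median of all genes tested (0.54 and 0.60). The C2H2 median is close to that line on both sides of the figure (left 0.63, right 0.68). Regulatory domain proteins have their median above it (left 0.97, right 0.91), and homeobox proteins below it (left 0.30, right -0.01). On the right, the bZIP (0.17), bHLH (0.26) and GATA (0.29) medians are also well below the line. Single genes lie far to either side.

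Counts in a class are read against the shares of all genes, 29.5% higher and 3.67% lower in NELP and 37.3% and 5.14% in ELP. Among the C2H2 zinc fingers, 21 of 72 tested rose and 3 fell in NELP (29.2% and 4.17%), and 27 rose and 3 fell in ELP (37.5% and 4.17%), close to those shares. After rescaling, 8 rose and 7 fell in NELP (11.1% and 9.72%) and 10 rose and 7 fell in ELP (13.9% and 9.72%). Class counts after rescaling are read against the rescaled shares of all genes. These were 6.57% higher and 7.08% lower in NELP, and 10.6% and 11.4% in ELP. The leading C2H2 protein was Phlgi1_123837, called a Zn finger domain protein, with 3 matches to the domain and no known target. Its transcript stood at 6674, 9209 and 9035 RPKM in NELP, at 1641, 1296 and 2498 RPKM in ELP, and at 253 and 749 RPKM in Glc. The 3 media did not overlap, and NELP was the highest. With a standard error of 0.47, the log2 fold change was 4.24 in NELP (adjusted p = 0.0024, limma) and 2.0 in ELP (adjusted p = 0.013). The ELP call was lost after rescaling (adjusted p = 0.062), and its size ranged from 1.22 without Glc 1 to 2.78 without Glc 2. The NELP change was 3.45 without Glc 1 and 5.02 without Glc 2, and passed in both cases and after rescaling (adjusted p = 0.0034).

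None of the 4 genes next to it in RefSeq order had such a level. The nearest of them, a ubiquitin carboxyl-terminal hydrolase (Phlgi1_123836) and a cyclin-like F-box protein (Phlgi1_20795), stood at 17.8 to 27.6 and 27.3 to 35.9 RPKM in NELP and at 24.0 to 31.5 and 36.6 to 42.2 RPKM in ELP.

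**Figure D3:**
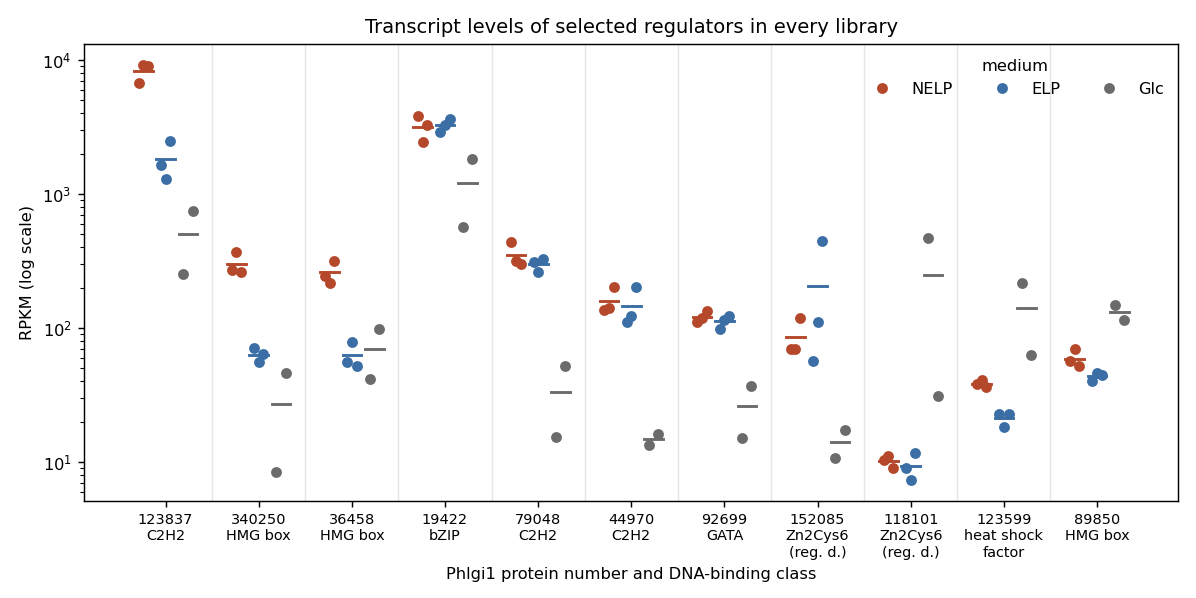
RPKM on a log scale of 11 members in each library, coloured by medium, with horizontal bars at the medium means. The first 3 genes are highest in NELP, the next 5 are higher in both wood media than in Glc, and the last 3 are highest in Glc.

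Phlgi1_79048 is named after Msn2, the general stress activator of budding yeast. It stood at 439, 317 and 301 RPKM in NELP, 312, 261 and 329 RPKM in ELP, and 15.5 and 51.7 RPKM in Glc. Both wood media lay far above Glc and overlapped each other. With a standard error of 0.46 it rose by 3.59 in NELP (adjusted p = 0.004) and by 3.38 in ELP (adjusted p = 0.0031), and both passed after rescaling and without any 1 library, although they were 2.74 and 2.52 without Glc 1. Phlgi1_44970, a hypothetical protein with a single C2H2 match, also rose. It stood at 136, 140 and 204 RPKM in NELP, 111, 122 and 203 RPKM in ELP, and 13.5 and 16.2 RPKM in Glc. Here the Glc libraries lay close together, and the change was 3.37 in NELP and 3.21 in ELP (standard error 0.32 each, adjusted p = 0.0014 and 0.0017). Both gene models are short, with 276 and 263 bases in RefSeq, so their RPKM rests on fewer reads than that of a gene of common length.

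The Crz1p-like protein Phlgi1_20014, named after the calcineurin-responsive factor of budding yeast, did not pass in either comparison. Its means were 93.2 ± 14.6 RPKM in NELP (SD, n = 3), 69.3 ± 8.67 in ELP (SD, n = 3) and 67.9 ± 27.6 in Glc (SD, n = 2). The abundant C2H2 protein Phlgi1_114591 did not pass either, with 569 to 888 RPKM in NELP, 324 to 1226 RPKM in ELP, and 474 and 417 RPKM in Glc. Its ELP libraries alone spanned more than the distance between the media.

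A C2H2 protein that distinguished the wood media was Phlgi1_24763. It stood at 12.8, 12.2 and 14.3 RPKM in ELP, 5.74, 4.67 and 4.17 RPKM in NELP, and 1.49 and 2.08 RPKM in Glc. The 3 media did not overlap, with ELP the highest. Its gene model is also short, with 240 bases in RefSeq, so at these levels its RPKM rests on few reads. It rose by 2.58 in ELP (adjusted p = 9.5e-04) and by 1.23 in NELP (adjusted p = 0.009; 0.051 after rescaling). Of the C2H2 proteins that fell, Phlgi1_20661 stood at 2.9 to 4.95 RPKM in NELP, 4.56 to 6.36 RPKM in ELP, and 25 and 7.72 RPKM in Glc. Phlgi1_433761 stood at 3.3 to 4.03 in NELP and 5.45 to 6.65 in ELP, and at 20.8 and 5.93 in Glc. Phlgi1_472081 stood at 0.544 to 3.2 RPKM in NELP, 0.406 to 3.33 RPKM in ELP, and 75.5 and 4.64 RPKM in Glc. In all of them Glc 1 supplied most of the difference. Phlgi1_20661 and Phlgi1_433761 fell by 1.66 and 1.49 in NELP, against changes of -0.84 and -0.62 without Glc 1 (adjusted p = 0.073 and 0.052), and -2.47 and -2.35 without Glc 2. Phlgi1_472081 fell by 3.31 in ELP, with -1.37 without Glc 1 (adjusted p = 0.23) and -5.25 without Glc 2. These calls were also lost without 1 or more of the wood libraries.

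Zn2Cys6 proteins found by their zinc cluster rose about as often as all genes in ELP and somewhat more often in NELP. Of the 62 found by their zinc cluster, 23 rose and 0 fell in NELP (1 fell at an unadjusted p under 0.05 and 3 after rescaling), and 24 rose and 2 fell in ELP, that is 37.1% higher in NELP and 38.7% in ELP beside 29.5% and 37.3% of all genes. Of the 18 found by the regulatory domain, 10 rose and 1 fell in NELP and 11 rose and 2 fell in ELP (55.6% and 61.1% higher). After rescaling these were 9 up and 3 down, 9 up and 9 down, 2 up and 1 down, and 5 up and 2 down. The rescaled shares higher were 14.5% in each medium for the zinc cluster, and 11.1% and 27.8% for the regulatory domain. Of all genes, 6.57% and 10.6% were then higher. The rescaled shares lower were 4.84% and 14.5%, and 5.56% and 11.1%, beside 7.08% and 11.4% of all genes. Before rescaling, zinc cluster proteins with the Pfam profile rose in 30.3% of cases in NELP and 33.3% in ELP. Those found by another signature rose in 44.8% in each. The most abundant on wood, Phlgi1_27457, stood at 401, 296 and 401 RPKM in NELP, 359, 345 and 396 RPKM in ELP, and 19.5 and 137 RPKM in Glc. The wood media overlapped each other and not Glc. With a standard error of 0.67 it rose by 2.79 in NELP (adjusted p = 0.02; 0.057 after rescaling) and by 2.80 in ELP (adjusted p = 0.014). Without Glc 1 these were 1.40 and 1.41, without Glc 2 4.18 and 4.19, and the NELP call was lost without any 1 NELP library (adjusted p = 0.057 to 0.061).

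Phlgi1_99884, a transcriptional regulatory protein, stood at 144 ± 32.8 RPKM in NELP (SD, n = 3), 183 ± 23.3 RPKM in ELP (SD, n = 3) and 44.5 ± 16.4 RPKM in Glc (SD, n = 2). It rose by 1.70 (adjusted p = 0.009) and 2.07 (adjusted p = 0.0038), and both calls held after rescaling. Phlgi1_76307 is named after Gsm1p, a budding yeast factor placed in energy metabolism. It had 54.9 to 59.7 RPKM in NELP, 52.0 to 59.8 RPKM in ELP, and 23.8 and 28.6 RPKM in Glc. Its libraries agreed closely within each medium, and the rises of 1.14 and 1.07 passed (adjusted p = 0.0076 and 0.006) but not after rescaling (0.083 and 0.13). Phlgi1_29730 rose from 3.88 and 11.4 RPKM in Glc to 31.0 to 45.4 RPKM in NELP, a change of 2.37 (adjusted p = 0.009), and to 18.3 to 30.1 RPKM in ELP, a change of 1.79 (adjusted p = 0.014; 0.067 after rescaling), which was 1.07 without Glc 1.

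Phlgi1_11523, with the regulatory domain, stood at 62.2, 53.6 and 32.3 RPKM in NELP, 123, 99.5 and 59.6 RPKM in ELP, and 3.86 and 16.0 RPKM in Glc. ELP tended to be higher, but ELP 3 lay within the NELP range. It rose by 3.42 in ELP (standard error 0.58, adjusted p = 0.0052) and by 2.50 in NELP (adjusted p = 0.018), where the call was lost after rescaling (adjusted p = 0.05) and without NELP 1 or NELP 2 (adjusted p = 0.059 and 0.063) and the change was 1.54 without Glc 1. Phlgi1_78208 stood at 72.0 to 104 RPKM in ELP, 46.0 to 58.8 in NELP, and 8.23 and 25.1 in Glc. Its gene model is short, with 379 bases in RefSeq, so its RPKM rests on fewer reads than that of a gene of common length. It rose by 2.61 in ELP (adjusted p = 0.0048, limma) and by 1.82 in NELP (adjusted p = 0.019). The NELP call was lost after rescaling (adjusted p = 0.064) and without NELP 1 or NELP 2 (0.056 and 0.067). Without Glc 1 the NELP change was 1.04.

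In the other direction, Phlgi1_118101 had the largest fall of any tested member in both media. It stood at 10.3, 11.1 and 8.96 RPKM in NELP, 9.04, 7.38 and 11.6 RPKM in ELP, and 467 and 30.9 RPKM in Glc. Both Glc libraries lay above all wood libraries but 1 of them was far above the other. The log2 change was -3.52 in NELP (adjusted p = 0.026) and -3.64 in ELP (adjusted p = 0.017), each with a standard error of 0.93. Without Glc 1 the changes were -1.57 and -1.70, without Glc 2 they were -5.47 and -5.59, and all of these passed. The NELP call was lost without NELP 1, NELP 2 or NELP 3 (adjusted p = 0.068 to 0.073) and the ELP call without ELP 1 or ELP 2 (0.051 and 0.053). Phlgi1_125875 and Phlgi1_115030 fell in ELP. The former stood at 29.2 to 37.9 RPKM in NELP, 14.7 to 22.6 RPKM in ELP, and 47.9 and 31.1 RPKM in Glc, and fell by 1.06 (adjusted p = 0.019, lost without ELP 1 or Glc 1 with 0.061 and 0.055). The latter stood at 3.83 to 8.13 in NELP, 1.88 to 3.49 RPKM in ELP, and 13.8 and 10.6 RPKM in Glc, and fell by 1.96 in ELP (adjusted p = 0.0061). In NELP its change was -1.0 (adjusted p = 0.061), which passed after rescaling with -1.58 (adjusted p = 0.029).

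Some members lie side by side in the genome. In RefSeq order, with breaks between scaffolds taken from the gene positions, 20 members formed 7 runs of adjacent genes, and the longest run had 5. That run lies in a cluster of 31 genes which the study singled out as a locus of response regulators, and 8 of the 31 are members, with 7 Zn2Cys6 proteins at one end and the HMG box protein Phlgi1_36458 near the other. Phlgi1_36445, Phlgi1_74327, Phlgi1_60579, Phlgi1_92206 and Phlgi1_92212 stayed within 5.62 to 83.7 RPKM in the wood libraries and 5.47 to 65.8 RPKM in Glc. Of these 5 only Phlgi1_92212 passed, with a rise of 1.02 in ELP (adjusted p = 0.014; 0.37 after rescaling).

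Phlgi1_151979 and Phlgi1_152085, adjacent in this run, behaved otherwise. The former is related to the activator of acetate utilization genes in *Neurospora crassa*. It stood at 46.8, 60.9 and 120 RPKM in NELP, 36.8, 122 and 598 RPKM in ELP, and 10.3 and 14.2 RPKM in Glc. The latter stood at 70.0, 69.4 and 119 RPKM in NELP, 56.9, 110 and 446 RPKM in ELP, and 10.8 and 17.3 RPKM in Glc. In both genes every wood library lay above every Glc library, the third library of each wood medium was the highest of it, and ELP 3 exceeded all others. Phlgi1_151979 rose by 3.47 in ELP (standard error 1.00, adjusted p = 0.026; 0.085 after rescaling, 0.062 without ELP 2 and 0.073 without Glc 1) and did not pass in NELP with 2.48 (adjusted p = 0.088). Phlgi1_152085 rose by 3.32 in ELP (standard error 0.76, adjusted p = 0.012; 0.046 after rescaling) and by 2.56 in NELP (adjusted p = 0.037; 0.13 after rescaling). Without ELP 3 the ELP changes were 2.42 and 2.49 and still passed. The NELP call of Phlgi1_152085 was lost without NELP 1, NELP 2, NELP 3, ELP 2 or Glc 1 (adjusted p = 0.06 to 0.11).

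**Figure D4:**
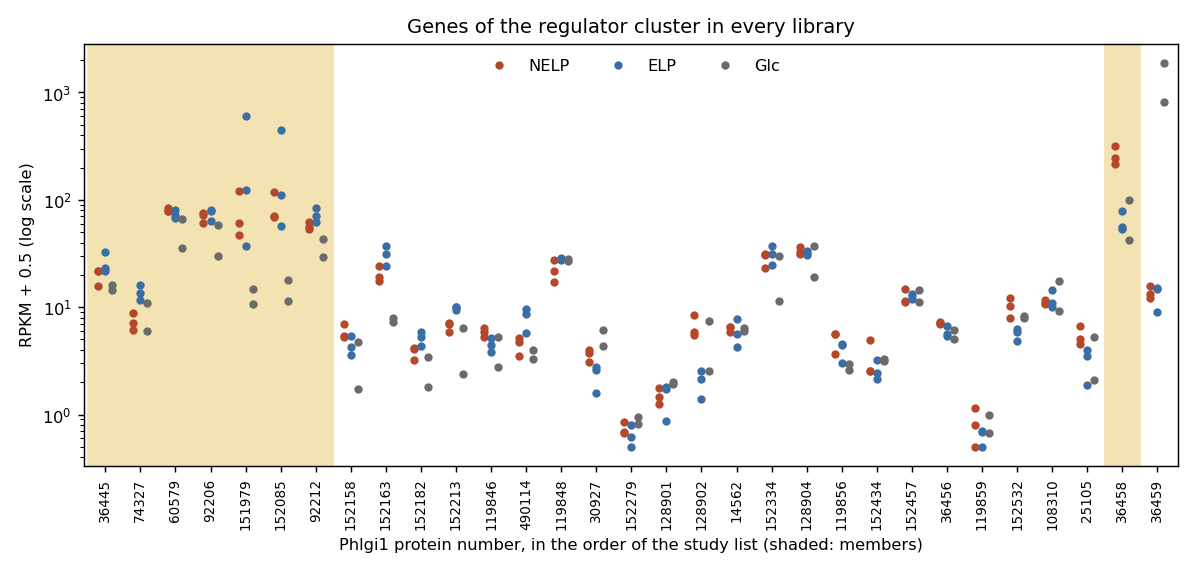
RPKM + 0.5 on a log scale for the 31 genes of the regulator cluster in each library, in the order of the study's list, with members shaded. Phlgi1_151979 and Phlgi1_152085 lie above Glc in every wood library and reach 598 and 446 RPKM in ELP 3, and Phlgi1_36458 stands at 217 to 317 RPKM in NELP.

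At the other end of the cluster lies Phlgi1_36458, an HMG box protein. It stood at 246, 217 and 317 RPKM in NELP, 55.7, 79.0 and 52.5 RPKM in ELP, and 41.7 and 98.9 RPKM in Glc. NELP lay above all other libraries, while ELP lay within the range of Glc. It rose by 1.99 in NELP against Glc (standard error 0.39, adjusted p = 0.011, and 0.042 after rescaling). This rise was 1.37 without Glc 1 and 2.61 without Glc 2. In ELP, Phlgi1_36458 did not pass (-0.07, adjusted p = 0.90). The next gene model, Phlgi1_36459, is hypothetical and no member. It went the opposite way, with 807 and 1875 RPKM in Glc and 8.46 to 15.3 RPKM in the wood libraries. The gene on the other side, Phlgi1_25105, stood at 1.39 to 6.11 RPKM throughout.

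A second HMG box protein, Phlgi1_340250, had nearly the same levels on wood, with 270, 368 and 260 RPKM in NELP and 70.7, 55.4 and 63.8 RPKM in ELP. In Glc it stood at 8.45 and 46.0 RPKM, so the 3 media did not overlap. It rose by 3.86 in NELP (standard error 0.59, adjusted p = 0.0064; 0.011 after rescaling), with 2.67 without Glc 1 and 5.05 without Glc 2, both past the threshold. The change of 1.64 in ELP missed the threshold (adjusted p = 0.057) and passed only without Glc 2, with 2.83 (adjusted p = 1.7e-04).

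Of the 18 tested HMG box proteins 4 rose and 2 fell in NELP (22.2% and 11.1%), and 2 rose and 2 fell in ELP (11.1% each), beside 29.5% and 3.67%, and 37.3% and 5.14%, of all genes. After rescaling, 2 rose and 2 fell in NELP (11.1% each, beside 6.57% and 7.08% of all genes). In ELP 1 then rose and 2 fell (5.56% and 11.1%, beside 10.6% and 11.4%). Those that fell were the same genes in both media. Phlgi1_89850 stood at 52.0 to 69.2 RPKM in NELP, 40 to 46.3 RPKM in ELP, and 148 and 114 RPKM in Glc, and fell by 1.14 (adjusted p = 0.011) and 1.57 (adjusted p = 0.0035). Phlgi1_36186 stood at 6.13 to 12.4 RPKM in NELP, 7.89 to 9.38 RPKM in ELP, and 32.5 and 27.4 RPKM in Glc, and fell by 1.62 (adjusted p = 0.0095) and 1.73 (adjusted p = 0.0055). Here the Glc libraries agreed, and all 4 calls held after rescaling and without any 1 library. With only the media compared in the fit, both ELP calls held. Both NELP calls were then lost (adjusted p = 0.055 for Phlgi1_89850 and 0.051 for Phlgi1_36186, limma). Phlgi1_121875, the most abundant HMG box protein in NELP and Glc by its mean, showed the opposite case. It stood at 355 to 538 RPKM in NELP and 93.8 to 242 in ELP, with 51.2 RPKM in Glc 1 and 1638 RPKM in Glc 2. Glc thus held both the lowest and the highest library, and no direction against Glc can be given. Without Glc 1 the change in NELP was -2.0 (adjusted p = 0.024), and without Glc 2 it was 2.99 (adjusted p = 0.0021). In ELP these were -3.32 (adjusted p = 0.0036) and 1.67 (adjusted p = 0.023).

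The HMG-I/Y proteins, small chromatin proteins that bind AT-rich DNA, rose in 4 of 7 tested cases in NELP and in 4 of 7 in ELP, with none lower (0 also at an unadjusted p under 0.05 and after rescaling in both). That is 57.1% in each, beside 29.5% and 37.3% of all genes, and rescaling left 0 and 3 rises. The rescaled shares were 0% and 42.9%, beside 6.57% and 10.6% of all genes. The most abundant, Phlgi1_34380, did not pass, with 110 to 131 RPKM in NELP, 109 to 167 RPKM in ELP, and 69.4 and 180 RPKM in Glc.

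The bZIP family held a pair of very abundant members. Phlgi1_19422, which the study retrieved with the unfolded protein response factor of *Cryptococcus neoformans*, a regulator of secretion stress, stood at 3810, 2422 and 3275 RPKM in NELP, 2882, 3248 and 3648 RPKM in ELP, and 570 and 1831 RPKM in Glc. By its mean it ranked 15 among all gene models in both wood media and 90 in Glc. Every wood library was above both Glc libraries, and the wood media overlapped. The rises of 1.61 and 1.67 passed (standard error 0.46 each, adjusted p = 0.032 and 0.022) but not after rescaling (0.14 and 0.12). Without Glc 1 they were 0.77 and 0.82, with the NELP call lost (adjusted p = 0.071), and without Glc 2 they were 2.45 and 2.51. Both calls were also lost without any 1 library of their own medium, and the NELP call without any 1 ELP library (adjusted p = 0.05 to 0.092 over these fits). In the 10 tested bZIP members, 1 rose and 0 fell in NELP (3 rose and 0 fell at an unadjusted p under 0.05), and 2 rose and 2 fell in ELP, so 10% and 20% rose beside 29.5% and 37.3% of all genes. In ELP 20% fell, beside 5.14% of all genes. After rescaling, 0 rose and 1 fell in NELP, and 0 rose and 4 fell in ELP. The shares that fell were then 10% and 40%, beside 7.08% and 11.4% of all genes. The 2 lower in ELP before rescaling were Phlgi1_129508, from 175 RPKM in Glc to 115 in ELP, and Phlgi1_365607, from 84.5 to 47.7 RPKM. Phlgi1_24389, at 1671 to 1809 RPKM in NELP, 1164 to 1529 RPKM in ELP, and 733 and 1318 RPKM in Glc, passed in neither.

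Among the bHLH proteins 7 of 13 rose in NELP and 5 in ELP, with none lower (0 and 1 at an unadjusted p under 0.05, 1 and 2 after rescaling), and after rescaling 3 rose in NELP and 0 in ELP. The shares higher were 53.8% and 38.5%, beside 29.5% and 37.3% of all genes. After rescaling they were 23.1% and 0%, beside 6.57% and 10.6%. Phlgi1_38191 was the most abundant, at 1054, 795 and 804 RPKM in NELP, 836, 1027 and 870 RPKM in ELP, and 432 and 388 RPKM in Glc. Wood and Glc libraries did not overlap, and the rises of 1.10 and 1.15 (standard error 0.22 each, adjusted p = 0.012 and 0.0069) were lost after rescaling (0.19 and 0.17). Homeobox proteins rose in 5 of 14 tested cases in NELP and 4 in ELP, where 1 fell (0 fell in NELP, also at an unadjusted p under 0.05 and after rescaling). The shares higher were 35.7% and 28.6%, beside 29.5% and 37.3% of all genes. After rescaling 1 rose in each medium and 1 fell in ELP. The rescaled shares higher were 7.14% in each, beside 6.57% and 10.6% of all genes. The median changes of the homeobox proteins were 0.30 and -0.01 (0.54 and 0.60 over all genes). Phlgi1_314017, the most abundant homeobox protein in ELP, stood at 82.4 to 123 RPKM in ELP against 51.6 to 72.6 in NELP and 56.3 and 53.3 in Glc, and passed in ELP alone with 0.96 (adjusted p = 0.021; 0.41 after rescaling, and 0.066 and 0.072 without ELP 1 or ELP 2).

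GATA factors rose in 2 of 8 cases in each wood medium, with 0 lower in NELP (also at an unadjusted p under 0.05 and after rescaling) and 1 lower in ELP (25% higher in each, beside 29.5% and 37.3% of all genes). After rescaling 1 rose in each and 2 fell in ELP. The rescaled shares higher were 12.5% in each, beside 6.57% and 10.6% of all genes, and 25% fell in ELP, beside 11.4%. Phlgi1_92699 is distantly related to White Collar-1, the blue light receptor and transcription factor of *N. crassa*, but is said to lack its light-sensing domain. It stood at 110, 118 and 135 RPKM in NELP, 99, 114 and 124 RPKM in ELP, and 15.1 and 37.0 RPKM in Glc. Wood and Glc did not overlap, and the rises of 2.32 and 2.21 (standard error 0.35 each, adjusted p = 0.0063 and 0.0045) held after rescaling and without any 1 library, with 1.69 and 1.58 without Glc 1. The White Collar-2-related Phlgi1_62123, whose counterpart is the partner of White Collar-1 in *N. crassa*, had 19.8 to 27.0 RPKM in the wood libraries and 16.3 and 23.2 RPKM in Glc and did not pass. The 1 GATA factor that fell was Phlgi1_77373, similar to the iron regulator Urbs1 of *Ustilago maydis*. It stood at 53.3, 50.7 and 67.2 RPKM in NELP, 29.1, 37.2 and 35.4 RPKM in ELP, and 70.6 and 46.5 RPKM in Glc. NELP lay within the range of Glc and ELP below both. The fall of 0.76 in ELP just passed (adjusted p = 0.046; 0.019 after rescaling) and was lost when any 1 library other than Glc 2 was left out (adjusted p = 0.062 to 0.15).

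Each of the 3 heat shock factors, activators of chaperone genes, had a different pattern. Phlgi1_123599 fell on wood, with 38, 41.0 and 36.5 RPKM in NELP, 22.8, 18.2 and 22.7 RPKM in ELP, and 218 and 62.5 RPKM in Glc. The 3 media did not overlap, and the changes, with a standard error of 0.46, were -1.59 in NELP (adjusted p = 0.033) and -2.44 in ELP (adjusted p = 0.0066). The ELP call held without any 1 library, at -1.54 without Glc 1 and -3.34 without Glc 2. The NELP value was -0.69 without Glc 1 and -2.49 without Glc 2, past the threshold both times, while leaving out any 1 wood library took it to an adjusted p of 0.052 to 0.086. Phlgi1_68835 and Phlgi1_61312 did not pass in either comparison. The former had 56.4 to 70.9 RPKM in NELP, 72.0 to 88.9 RPKM in ELP, and 113 and 39.3 RPKM in Glc.

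NELP and ELP differ only in whether the wood had been extracted. In the fit over all 3 media, limma called 0 members higher and 0 lower in NELP than in ELP (background 0.00909% and 0%). At an unadjusted p under 0.05, 32 members were higher and 14 lower, 13.8% and 6.03% of those tested, beside 7.23% and 9.12% of all genes. That fit estimates a common spread of a gene from all media, and members varied most in Glc. Rescaling also gave 0 and 0 (background 0.0273% and 0%). In a fit of the NELP and ELP libraries alone, 28 members were higher in NELP and 8 were lower, 12.1% and 3.45% of the members, beside 6.12% and 4.28% of all genes tested. With rescaling added these were 31 and 8 (background 7.49% and 3.98%), and with weights by medium 30 and 10 (7.07% and 6.29%). All 36 had NELP and ELP libraries that did not overlap. Among all tested members the NELP libraries lay wholly above the ELP libraries in 70 and wholly below in 36, 30.2% and 15.5% of members, against 16.7% and 22.1% of all genes. The smallest p that exact permutation of 3 against 3 libraries allows is 0.10, so no gene could pass by permutation. In the following, adjusted p values are those of the fit of the wood libraries, and the genes named here were chosen after its values were seen. The 3 genes added by name are no exception, since the study had selected them for their levels in NELP against ELP in these libraries, so their values are a description and no independent evidence.

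**Figure D5:**
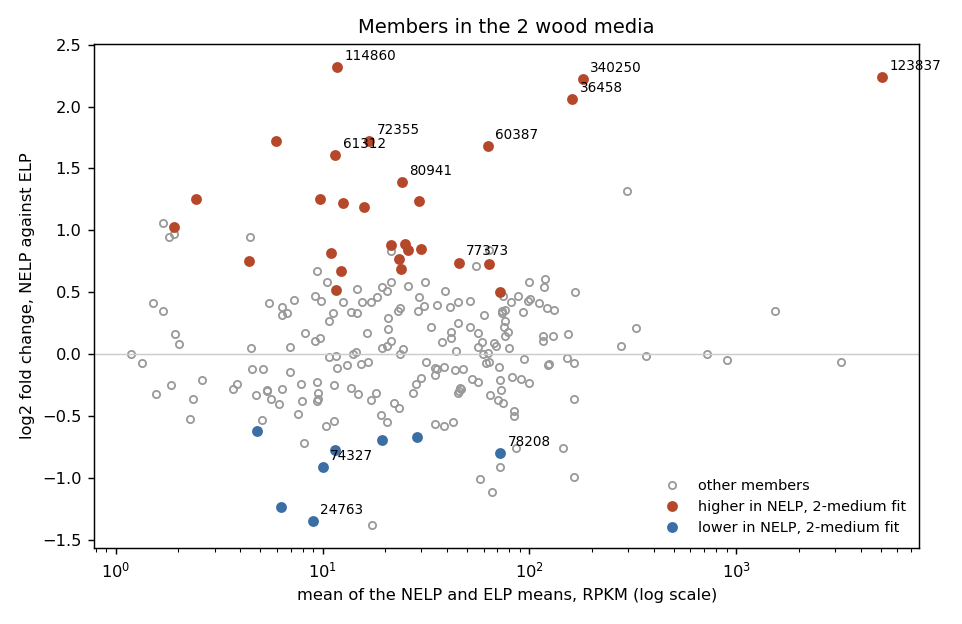
Log2 fold change of each tested member in NELP against ELP, plotted against its level, the mean of the NELP and ELP means in RPKM on a log scale. Filled points passed at an adjusted p under 0.05 in the fit of the 2 wood media alone (28 higher, 8 lower in NELP), and none passed in the fit over the 3 media. The C2H2 protein Phlgi1_123837 and the HMG box proteins Phlgi1_340250 and Phlgi1_36458 combine a high level with a log2 difference of 2.06 to 2.24.

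The largest differences at high levels were those of the 3 genes added by name. Phlgi1_123837 was higher in NELP by 2.24 (standard error 0.26, adjusted p = 0.0084), Phlgi1_340250 by 2.22 (standard error 0.18, adjusted p = 0.0055) and Phlgi1_36458 by 2.06 (standard error 0.22, adjusted p = 0.0084), with library values as given above. In the fit over the 3 media the adjusted p values were 0.096, 0.15 and 0.086. Their means in NELP were 8306 ± 1416, 299 ± 59.9 and 260 ± 51.5 RPKM, and in ELP 1812 ± 619, 63.3 ± 7.68 and 62.4 ± 14.5 RPKM (SD, n = 3).

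The 28 members higher in NELP, these 3 included, belonged to most families. They were 5 zinc cluster proteins (8.06% of those tested), 4 GATA (50%), 4 bHLH (30.8%), 3 homeobox (21.4%) and 3 bZIP (30%). The others were 2 C2H2 (2.78%), 2 HMG box (11.1%), 2 regulatory domain (11.1%), 2 heat shock (66.7%) and 1 forkhead-associated protein (16.7%). Of all genes tested, 6.12% were higher in this fit and 4.28% lower. Of the 8 members lower in NELP, 6 were C2H2 proteins, 8.33% of that class. The median difference was 0.07 over all members (-0.07 over all genes), 0.50 in the 13 bHLH, 0.43 in the 8 GATA and 0.36 in the 10 bZIP proteins, and -0.01 in C2H2 proteins.

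Of the bHLH proteins, Phlgi1_72355 stood at 29.1, 20.8 and 28.5 RPKM in NELP, 7.62, 7.16 and 7.68 RPKM in ELP, and 9.42 and 19.9 RPKM in Glc. Glc thus lay between the wood media without overlap. NELP exceeded ELP by 1.72 (standard error 0.17, adjusted p = 0.0073). Phlgi1_114860 stood at 26.4, 12.8 and 20.6 RPKM in NELP, 2.31, 4.77 and 3.6 RPKM in ELP, and 0.58 and 10.9 RPKM in Glc. Its difference of 2.32 (standard error 0.32, adjusted p = 0.013, limma) was larger than that of any other member. The gene model has 552 bases in RefSeq, so at the ELP levels its RPKM rests on few reads. The heat shock factor Phlgi1_61312 stood at 19.4, 17.6 and 15.8 RPKM in NELP and 5.72, 5.2 and 5.36 RPKM in ELP, with 3.24 and 20.2 RPKM in Glc. The wood libraries agreed closely within each medium (1.61 higher in NELP, standard error 0.14, adjusted p = 0.0055), while Glc spanned both. Phlgi1_123599, the heat shock factor that fell on wood, was also higher in NELP than in ELP, by 0.85 (adjusted p = 0.021).

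The C2H2 protein Phlgi1_60387 stood at 95.0 ± 12.7 RPKM in NELP (mean and SD, n = 3), with 81.8 RPKM the lowest, 18.9, 44.1 and 29.3 RPKM in ELP, and 19.1 and 80.8 RPKM in Glc (1.68, adjusted p = 0.022). The Zn2Cys6 protein Phlgi1_80941 stood at 35.8, 32.8 and 37.3 RPKM in NELP, 13.4, 13.3 and 12.8 RPKM in ELP, and 9.28 and 33.9 RPKM in Glc (1.39, adjusted p = 0.0067). In both, the NELP and ELP values were well apart, and Glc 1 lay near ELP while Glc 2 lay near NELP or between. The gene model of Phlgi1_80941 is short, with 414 bases in RefSeq, so its RPKM rests on fewer reads than that of a gene of common length. The Urbs1-like GATA factor Phlgi1_77373 was higher in NELP by 0.74 (adjusted p = 0.04). Other GATA factors higher in NELP were Phlgi1_14903, with a mean of 41.1 against 17.1 RPKM in ELP, Phlgi1_130107, with 27.9 against 14.9 RPKM, and Phlgi1_83279, with 13.7 against 9.41 RPKM.

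The 8 lower in NELP were Phlgi1_24763, by 1.35 on the log2 scale (standard error 0.16, adjusted p = 0.0084), the C2H2 proteins Phlgi1_61571, Phlgi1_130740, Phlgi1_296537, Phlgi1_433761 and Phlgi1_511668, the zinc cluster protein Phlgi1_78208 and the cluster member Phlgi1_74327. Phlgi1_61571, with 5 matches to the finger domain, stood at 20.8 to 23.4 RPKM in NELP, 33.9 to 37.6 RPKM in ELP, and 11 and 15.7 RPKM in Glc, without overlap (-0.67, adjusted p = 0.027). Phlgi1_74327 stood at 5.62 to 8.25 RPKM in NELP and 11.1 to 15.5 in ELP (-0.91, adjusted p = 0.032), with 10.5 and 5.47 RPKM in Glc.

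Other parts of the transcription apparatus were counted for comparison, as groups chosen by annotation. Of 36 tested genes of other DNA-binding families (Myb, MADS-box, copper fist and the like), 18 rose and 0 fell in NELP (also 0 fell at an unadjusted p under 0.05 and 1 after rescaling), and 13 rose and 2 fell in ELP. Of 71 chromatin cofactors 39 rose and 0 fell in NELP (0 and 1 by the same measures), and 45 rose and 1 fell in ELP. In the general transcription machinery 19 of 46 rose in NELP and 28 in ELP with none lower (0 in each at an unadjusted p under 0.05, 1 and 0 after rescaling). Of all genes tested, 3.67% fell in NELP and 5.14% in ELP. The shares of the 3 groups higher in NELP were 50.0%, 54.9% and 41.3% (29.5% of all genes). In ELP they were 36.1%, 63.4% and 60.9% (37.3% of all genes). Their median changes were 0.81 and 0.60, 0.92 and 0.97, and 0.65 and 0.80, beside 0.72 and 0.59 for the members. After rescaling, 3 and 4, 10 and 13, and 2 and 4 genes rose in NELP and ELP. These were 8.33% and 11.1%, 14.1% and 18.3%, and 4.35% and 8.7%, beside 6.57% and 10.6% of all genes. In the fit of the wood libraries, 6 of the 36, 0 of the 71 and 2 of the 46 were higher in NELP than in ELP, and 1, 3 and 0 were lower. The shares were 16.7%, 0% and 4.35% higher (6.12% of all genes) and 2.78%, 4.23% and 0% lower (4.28% of all genes). The difference between these groups and the members was not tested.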

How the data were processed

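Poly-A RNA of 8 cultures was sequenced by the authors on an Illumina HiSeq2000 (CASAVA 1.8.2 in the submitters' processing notes). The authors mapped reads with SeqNGen and deposited RPKM values computed by QSeq, in which the reads of a gene are divided by its length and by the size of the library. Of 11892 gene models 11891 had values.

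Values were compared as log2(RPKM + 0.5), which understates changes of low genes, by limma (version 3.58.1, under R 4.3.3) with a single model for all 3 media. Tests covered the 10999 genes whose mean reached 1 RPKM, and p values were adjusted over them by Benjamini-Hochberg (threshold 0.05). Depth was estimated from the smallest step of RPKM times RefSeq gene length, and 34.3 to 49.5% of low values lay within 5% of a whole read; the lengths used include introns. At 1 RPKM, a gene of 1 kb holds 5.94 to 18.2 reads. The fit was tested on simulated data, but no outcome of that is given and no result here rests on it. How far the fit holds where Glc libraries spread more widely than wood libraries was not tested.

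Named genes were those added by name, members the study names, up to 8 per direction and comparison that passed, reached 10 RPKM and did not overlap, the 5 most abundant members and the most abundant of each class. Members of NELP against ELP were chosen from the fit of the wood libraries. Members, lists and rules were chosen with earlier results of these data known. Alternatives were a pseudocount of 1 or 0.1, no filter or a mean of 5 RPKM, rescaling by median ratio or upper quartile, only the media compared, array weights by medium, limma-trend, a replicate block and leaving out each library. Both combinations with rescaling were added after seeing the data. Gene neighbours came from RefSeq, where 239 members matched.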

Additional observations from a re-analysis of the deposited data

Results flagged for a closer look

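The bHLH protein Phlgi1_72355 had log2 changes of opposite sign in the wood media. Every NELP library lay above both Glc libraries (log2 fold change 0.89, adjusted p = 0.066 with limma), and every ELP library lay below both (-0.83, adjusted p = 0.068). Neither change passed, although the ELP change did after rescaling (adjusted p = 0.014), and the difference between the 2 responses, which is that of NELP against ELP, is given in the report from the fit of the wood libraries. It was not tested apart from that.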

How the results depend on the processing

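The counts of members depended on scaling and on how the spread of Glc entered the fit. Rescaling by median ratio gave 26 higher and 16 lower in NELP than in Glc and 30 and 32 in ELP, and by upper quartile 30 and 12, and 32 and 26. When a fit held only the compared media, the counts were 32 and 0, 37 and 4, and, for NELP against ELP, 28 and 8. Array weights by medium gave 3 and 0, 1 and 0, and 30 and 10. With rescaling added, such fits gave 3 and 1, 3 and 3, and 31 and 8, and array weights 0 and 0, 0 and 1, and 38 and 10. Leaving out each library gave 34 to 134 higher and 2 to 19 lower in NELP than in Glc, 51 to 135 and 4 to 23 in ELP, and 0 to 28 and 0 to 8 in NELP against ELP. With a Glc library left out, the spread comes from the wood libraries alone. Shares of all genes are not given for the upper quartile or for fits without 1 library, so those counts are no trait of the members. A pseudocount of 1 or 0.1, no filter, a filter at 5 RPKM and limma-trend kept all 6 counts within 1.5 times.

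Whether libraries of equal replicate number are paired was not settled. Between NELP and ELP their deviations correlated at 0.403, -0.145 and 0.499, and those of libraries of unequal number at -0.534 to 0.279. With a replicate block, 63 members were higher and 4 lower in NELP than in Glc, 74 and 7 in the ELP comparison, and 0 and 0 between the wood media. Shares of all genes are not given for that fit either.

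Changes of the named genes that passed on at least 1 side reversed in 5 cases, each without 1 Glc library. Estimates that passed on neither side also turned sign, in 35 cases without 1 library (for Phlgi1_151979 in NELP against ELP from -0.99 to 0.06 without ELP 3), in 75 with rescaling and in 1 with the replicate block. Without Glc 1 and without Glc 2, Phlgi1_121875 changed by -2.0 and 2.99 in NELP and by -3.32 and 1.67 in ELP. In ELP, Phlgi1_80941 changed by -1.34 and 0.48, Phlgi1_61312 by -1.81 and 0.66, and Phlgi1_114860 by -1.54 and 1.86.

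These limits apply to all results. Only 2 Glc cultures were sequenced, the ELP libraries were the shallowest, and how reads shared by near-identical zinc finger genes were assigned is not known here.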
